A study of Mus musculus with 13 samples.

Results

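A set of 10 genes of glucose breakdown and of the response to low oxygen was followed on 13 two-colour arrays of mouse RNA: Slc2a3, Hk2, Pfkl, Pfkp, Aldoa, Ldha, Pdk1, Egln3, P4ha1 and Vegfa. They were chosen by name, as glycolytic enzymes, a glucose transporter and targets of the hypoxia inducible factors (HIF), with every probe annotated to exactly 1 of these symbols. This gave 13 probes of 10 genes, among 20205 probes and 9669 genes with a probe of 1 symbol. Aldoa, Ldha and Pfkp had 2 probes each, and 1 further probe that lists Ldha beside another gene was left unnamed.

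Each array set 1 RNA source named NT1 against 1 named TBV. The series title links NT1 to a homozygous mutation of Sall4, written -/-, and TBV is the source it was compared with. The 4 source pairs, written NT1/TBV from here on, were NT1p14/TBVp13 (5 arrays), NT1p12/TBVp12 (4 arrays), NT1 1/TBV2 (2 arrays) and NT1p12/TBVp13 (2 arrays). The labels mention passages that differ, and the p in a source name may stand for passage. No cell type, sex, age or treatment is given for any source, and as far as the labels tell NT1 and TBV are 1 line each. A mouse embryonic stem cell line called TBV2 exists, but the labels do not say that it is meant here. A ratio carries no level, so no marker of a cell type could be checked for presence.

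Glycolysis turns glucose into pyruvate in the cytoplasm, and pyruvate is either burned in mitochondria or reduced to lactate. When oxygen is scarce, prolyl hydroxylases no longer mark the HIF alpha subunits for destruction, and the stabilised factor binds short DNA elements with the core ACGTG or GCGTG near its target genes. Pluripotent mouse cells are known for active glycolysis, and many of its genes are textbook HIF targets.

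Over the 3 independent source pairs Pdk1 and P4ha1 lay above 0 in all 3, 2 of 10 genes against 8.75% of all genes, and Hk2 and Pfkp below 0 in all 3, 2 of 10 against 5.82%. Probes of a gene were averaged here, and Pfkp probe 18836 alone was at 0.09 in NT1p12/TBVp12. In that pair the dye orientations of Hk2 and P4ha1 disagreed. With NT1 in the Cy5 dye they were at -0.66 and -0.08, and with TBV in Cy5 at 0.30 and 0.40. How the first pair is signed relative to the second is not settled, as set out below. With the signs of NT1p14/TBVp13 turned Pdk1, P4ha1, Hk2 and Pfkp lose their common sign by arithmetic alone. Then Egln3 lay above 0 in all 3 pairs, against 13.7% of all genes, and Ldha below, against 16.5%. Turning NT1p12/TBVp12 instead would give 1 sign to other genes. Among them are Pfkl, with pair values of 0.29, -0.02 and 0.37, and Vegfa, with -0.49, 0.08 and -0.13. For each of the 6 genes with 1 sign under the first 2 readings, 1 promoter sequence is shown. Each run is the 250 bases before an annotated start, from RefSeq on GRCm38.p6, read 5′ to 3′ on the gene's own strand, and capitals mark ACGTG or GCGTG on either strand. The windows are chr2:71872974-71873223 (plus strand) for Pdk1, chr10:59323046-59323295 (plus strand) for P4ha1, chr6:82774455-82774704 (minus strand) for Hk2, chr13:6648772-6649021 (minus strand) for Pfkp, chr12:54203875-54204124 (minus strand) for Egln3 and chr7:46845554-46845803 (plus strand) for Ldha.
Pdk1: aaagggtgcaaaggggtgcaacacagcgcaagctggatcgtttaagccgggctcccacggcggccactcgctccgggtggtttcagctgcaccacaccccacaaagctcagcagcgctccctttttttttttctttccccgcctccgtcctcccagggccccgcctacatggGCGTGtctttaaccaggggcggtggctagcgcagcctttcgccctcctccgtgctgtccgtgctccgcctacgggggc
P4ha1: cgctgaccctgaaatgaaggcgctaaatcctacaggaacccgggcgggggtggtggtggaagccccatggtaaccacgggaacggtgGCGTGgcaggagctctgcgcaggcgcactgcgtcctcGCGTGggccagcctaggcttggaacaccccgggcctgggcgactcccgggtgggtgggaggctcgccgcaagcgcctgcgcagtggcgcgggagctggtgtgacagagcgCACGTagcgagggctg
Hk2: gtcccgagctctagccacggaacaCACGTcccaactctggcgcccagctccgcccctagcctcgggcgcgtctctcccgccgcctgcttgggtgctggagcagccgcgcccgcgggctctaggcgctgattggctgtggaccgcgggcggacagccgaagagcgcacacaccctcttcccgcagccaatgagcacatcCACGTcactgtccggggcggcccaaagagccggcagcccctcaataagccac
Pfkp: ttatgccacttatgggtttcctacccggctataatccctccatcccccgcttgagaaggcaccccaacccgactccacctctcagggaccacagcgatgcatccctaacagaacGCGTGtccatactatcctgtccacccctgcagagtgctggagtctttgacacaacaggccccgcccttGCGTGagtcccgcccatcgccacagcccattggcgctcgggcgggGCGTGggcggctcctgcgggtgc
Egln3: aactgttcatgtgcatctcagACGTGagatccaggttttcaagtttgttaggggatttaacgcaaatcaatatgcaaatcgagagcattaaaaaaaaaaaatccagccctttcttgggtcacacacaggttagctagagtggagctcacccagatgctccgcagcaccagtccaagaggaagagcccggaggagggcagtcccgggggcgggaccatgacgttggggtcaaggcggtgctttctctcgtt
Ldha: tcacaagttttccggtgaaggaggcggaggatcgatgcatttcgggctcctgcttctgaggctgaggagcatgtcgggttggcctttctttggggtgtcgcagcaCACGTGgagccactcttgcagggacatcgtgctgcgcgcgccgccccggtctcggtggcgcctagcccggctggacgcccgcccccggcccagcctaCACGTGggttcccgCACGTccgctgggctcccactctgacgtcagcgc

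The Pdk1 window held 1 GCGTG, the P4ha1 window 2 GCGTG and 1 ACGTG, the Hk2 window 2 ACGTG and the Pfkp window 3 GCGTG. The Egln3 window held 1 ACGTG and the Ldha window 5, counted on both strands. Pdk1 and Ldha each have 1 further window that is not printed, with 0 cores for Pdk1 and 1 GCGTG for Ldha. For both genes the window shown is thus the one with more cores. By window, a core was found in 11 of 14, against 38.6% of all 32851 windows of this length. By gene, at least 1 core was found in 9 of the 9 that have a window. Some genes have several windows, and a gene counted here when any of its windows held a core, so the share by window does not apply. Vegfa counted only through the window chr17:46025164-46025413 (minus strand). That window lies downstream of the other Vegfa window, which held 0 cores. ACGTG was found in 7 of 14 windows of these genes and in 16.6% of all windows, and GCGTG in 6 of 14 and in 28.2%. The longer form ACGTGC was found in 2 of 14 windows and in 4.92% of all, and GACGTG in 6 of 14 and in 5.2%. Both longer forms contain ACGTG. Of the Aldoa windows 2 overlap and hold the same site, which counts in both under ACGTG and GACGTG. The genes were chosen partly as HIF targets, so higher shares than in all windows may follow from that choice. A palindromic CACGTG, as in the Ldha window, counts on both strands. These are matches of letters, and neither binding nor a start in use was measured.

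Values were taken to be log2 ratios of NT1 over TBV, so that 1 stands for a doubling if the log base is 2. They were read as Cy5 over Cy3, with the sign turned on arrays that had TBV in Cy5. The sources used here do not settle the numerator, so all signs together may be the reverse. The pairs NT1p14/TBVp13 and NT1p12/TBVp12 correlated at -0.498 over 16317 probes. Their directions relative to each other are therefore not settled either, and the means over pairs are also given with the signs of NT1p14/TBVp13 turned. With NT1 1/TBV2 the 2 pairs correlated at 0.134 and -0.0373, in the same order. Which of the 2 would be the turned pair was not tested, and means that changed sign with NT1p12/TBVp12 turned are given at the end. Probes with a value numbered 14314 to 18381 per array, and the SD over probes was 0.335 to 1.14. Arrays 4 and 5 of NT1p14/TBVp13 were the widest (SD 1.00 and 1.14). Of 168 array values of the 10 genes, 23 were whole numbers, and 1 further value was missing.

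**Figure D1:**
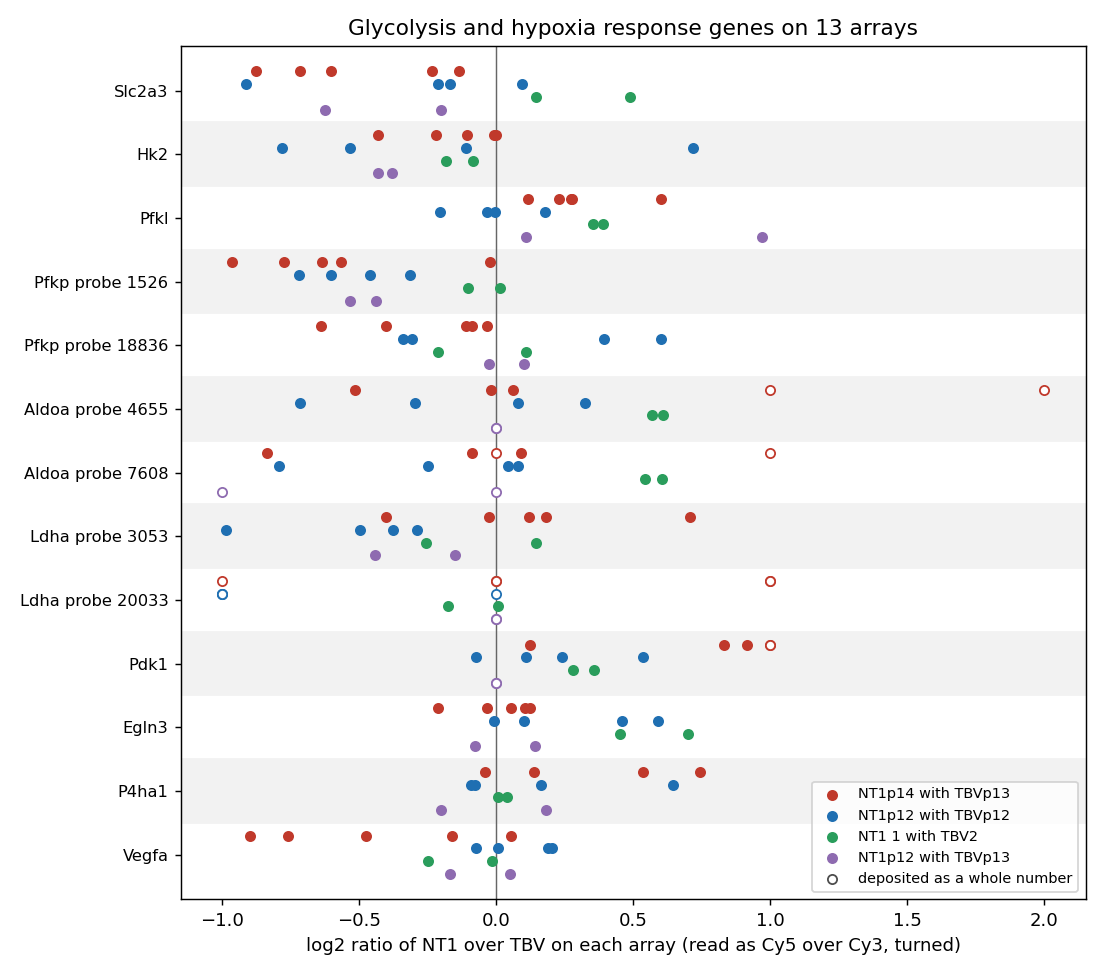
Log2 ratio of NT1 over TBV (x axis) of each of the 13 probes (rows) on each array, 1 point per array, coloured by source pair; open points were deposited as whole numbers. Pfkp probe 1526 and Hk2 lie below 0 on 12 of 13 arrays each, and Pdk1 lies above 0 on 10.

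The first question was whether NT1 differed from TBV over the 3 source pairs that share no source name, called independent here. The labels do not say whether NT1 1 and TBV2 are preparations apart from the other sources. Each pair gave 1 value, with the dye orientations balanced, so n = 3. NT1p12/TBVp13 shares its sources with other pairs and is given beside them only. None of the 13 probes passed an adjusted p of 0.05 in limma. Over all probes 0 of 15973 passed, a background of 0%. At an unadjusted p under 0.05 there was 1 of 13 probes, Pdk1, against 1.03% of all probes. Above 0 in all 3 pairs were 2 of 13 probes, against 9.05% of all probes, and below 0 in all 3 pairs were 2 of 13, against 5.33%. With NT1p14/TBVp13 turned the counts were 1 of 13 above, the Egln3 probe, against 16.1%, and 2 of 13 below, both Ldha probes, against 14.3%. The median of the 13 mean ratios was -0.09, and over the 10 genes, with probes of a gene averaged, it was 0.01, so its sign depends on that choice. With NT1p14/TBVp13 turned these medians were 0.02 and 0.04. Since RNA was measured in bulk, fewer cells of a kind and less RNA per cell cannot be told apart.

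Slc2a3 encodes Glut3, a high-affinity glucose carrier of the plasma membrane. Its log2 ratios were -0.13, -0.71, -0.88, -0.23 and -0.60 in NT1p14/TBVp13, and -0.21, 0.094, -0.17 and -0.91 in NT1p12/TBVp12. They were 0.49 and 0.14 in NT1 1/TBV2, and -0.20 and -0.63 in NT1p12/TBVp13. The arrays of NT1 1/TBV2 were thus the highest, above all arrays of the other pairs. The mean over the 3 independent pairs was -0.18 ± 0.45 (SD, n = 3), less than its spread, and 0.19 with the NT1p14 pair turned.

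Hk2 encodes hexokinase 2, which phosphorylates glucose on entry. Its ratios in NT1p14/TBVp13 were -0.11, -0.43, -0.22, -0.00044 and -0.0071. In NT1p12/TBVp12 they were -0.53, -0.78, 0.72 and -0.11. The array at 0.72, which had TBV in Cy5, was the only one of 13 above 0. NT1 1/TBV2 gave -0.085 and -0.19, and NT1p12/TBVp13 gave -0.43 and -0.38. The 3 pair values were close together, at -0.15 ± 0.02 (SD, n = 3), while the 4 arrays of NT1p12/TBVp12 spanned both signs. The limma fit, which pools the spread over probes, gave an unadjusted p of 0.26 and an adjusted p of 1.00. With NT1p14/TBVp13 turned the mean was -0.05.

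Pfkl and Pfkp encode the liver and platelet forms of phosphofructokinase, which catalyses the committed step of glycolysis. Pfkl had ratios of 0.27, 0.12, 0.23, 0.60 and 0.28 in NT1p14/TBVp13, and -0.21, -0.0042, 0.18 and -0.035 in NT1p12/TBVp12. It had 0.39 and 0.35 in NT1 1/TBV2, and 0.11 and 0.97 in NT1p12/TBVp13. All arrays outside NT1p12/TBVp12 were above 0, 9 of 9. Its mean was 0.22 ± 0.20 (SD, n = 3), with an adjusted p of 1.00 (limma), and 0.02 with NT1p14/TBVp13 turned.

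Pfkp probe 1526 had ratios of -0.64, -0.57, -0.96, -0.024 and -0.77 in NT1p14/TBVp13, and -0.72, -0.31, -0.46 and -0.60 in NT1p12/TBVp12. The ratios were 0.012 and -0.10 in NT1 1/TBV2, and -0.44 and -0.53 in NT1p12/TBVp13. It was the lowest of the 13 probes by its mean, at -0.40 ± 0.32 (SD, n = 3), with an unadjusted p of 0.0556 and an adjusted p of 1.00 (limma). The arrays of NT1 1/TBV2 lay close to 0, and all other arrays but 1 were at -0.31 or below. With the NT1p14 pair turned the mean was 0.02.

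The other Pfkp probe, 18836, went apart from it. It had -0.036, -0.088, -0.40, -0.11 and -0.64 in NT1p14/TBVp13, and 0.39, 0.60, -0.34 and -0.31 in NT1p12/TBVp12. Within NT1p12/TBVp12 its sign followed the dye, above 0 with NT1 in Cy5 and below 0 with TBV in Cy5. NT1 1/TBV2 gave 0.11 and -0.21, and NT1p12/TBVp13 gave 0.10 and -0.027. Its mean was -0.09 ± 0.20 (SD, n = 3), and 0.11 with NT1p14/TBVp13 turned. The 2 probes of this gene differed most in NT1p12/TBVp12, at -0.52 and 0.09.

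Aldoa encodes aldolase A, which splits fructose bisphosphate. Probe 4655 had -0.018, 0.060, -0.52, 2 and 1 in NT1p14/TBVp13, and -0.30, 0.078, 0.32 and -0.72 in NT1p12/TBVp12. Probe 7608 had 0.089, -0.088, -0.84, 1 and 0 in NT1p14/TBVp13, and -0.25, 0.043, 0.081 and -0.79 in NT1p12/TBVp12. Both probes were lowest on array 3 and highest, with a whole number, on array 4 of NT1p14/TBVp13, and lowest on array 4 and highest on array 3 of NT1p12/TBVp12. In NT1 1/TBV2 probe 4655 gave 0.57 and 0.61 and probe 7608 gave 0.60 and 0.54. All values of NT1p12/TBVp13 were whole numbers, 0 and 0 for probe 4655 and 0 and -1 for probe 7608. The means were 0.30 ± 0.40 for probe 4655 and 0.10 ± 0.42 for probe 7608 (SD, n = 3), both within their spread, and -0.01 and 0.13 with NT1p14/TBVp13 turned.

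Ldha encodes the lactate dehydrogenase subunit that favours lactate formation. Probe 3053 had -0.40, 0.18, -0.027, 0.71 and 0.12 in NT1p14/TBVp13, and -0.99, -0.29, -0.38 and -0.50 in NT1p12/TBVp12. All 4 arrays of NT1p12/TBVp12 were thus below 0, while NT1p14/TBVp13 held both signs. Probe 20033 held whole numbers on 11 of 13 arrays, with -1, 1, 0, 1 and 0 in NT1p14/TBVp13 and -1, -1, 0 and -1 in NT1p12/TBVp12. NT1 1/TBV2 gave 0.15 and -0.26 for probe 3053 and 0.0074 and -0.18 for probe 20033. NT1p12/TBVp13 gave -0.15 and -0.44 for probe 3053 and 0 and 0 for probe 20033. Mean ratios were -0.16 ± 0.33 for probe 3053 and -0.22 ± 0.47 for probe 20033 (SD, n = 3), within their spread, and -0.23 and -0.33 with NT1p14/TBVp13 turned.

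Pdk1 encodes a kinase that phosphorylates the pyruvate dehydrogenase complex and so limits the entry of pyruvate into the tricarboxylic acid cycle. Its ratios were 0.12, 0.83, 0.91, 1 and 1 in NT1p14/TBVp13, the last 2 as whole numbers, and -0.072, 0.54, 0.24 and 0.11 in NT1p12/TBVp12. NT1 1/TBV2 gave 0.36 and 0.28, and both arrays of NT1p12/TBVp13 were listed at a whole 0. Of the 13 arrays 10 were above 0 and 1 was below. Pdk1 had the highest mean of the 13 probes, 0.44 ± 0.32 (SD, n = 3), with an unadjusted p of 0.0423 and an adjusted p of 1.00 (limma). With the NT1p14 pair turned the mean was -0.09.

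Egln3 encodes a prolyl hydroxylase that marks HIF alpha subunits for degradation and is itself induced by HIF. It had 0.053, 0.12, -0.21, 0.11 and -0.036 in NT1p14/TBVp13, and 0.46, 0.59, -0.0089 and 0.10 in NT1p12/TBVp12. It had 0.70 and 0.45 in NT1 1/TBV2, and 0.14 and -0.077 in NT1p12/TBVp13. In each of the 4 pairs every array with NT1 in Cy5 was higher than every array with TBV in Cy5. Its mean was 0.28 ± 0.29 (SD, n = 3), and 0.29 with the NT1p14 pair turned, since that pair was close to 0.

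P4ha1 encodes the catalytic subunit of collagen prolyl 4-hydroxylase, a HIF target that modifies procollagen. It had -0.042, 0.14, 0.54 and 0.74 in NT1p14/TBVp13, where array 2 held no value, and -0.091, -0.077, 0.64 and 0.16 in NT1p12/TBVp12. NT1 1/TBV2 gave 0.0045 and 0.040, and NT1p12/TBVp13 gave -0.20 and 0.18. Within NT1p12/TBVp12 and NT1p12/TBVp13 its sign followed the dye, below 0 with NT1 in Cy5 and above 0 with TBV in Cy5. The pair values were 0.34, 0.16 and 0.02, with a mean of 0.18 ± 0.16 (SD, n = 3) and an adjusted p of 1.00 (limma). With NT1p14/TBVp13 turned the mean was -0.05.

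Vegfa encodes vascular endothelial growth factor A, the HIF target that drives vessel growth. It had 0.055, -0.16, -0.48, -0.76 and -0.90 in NT1p14/TBVp13, and 0.20, 0.19, 0.0051 and -0.074 in NT1p12/TBVp12. NT1 1/TBV2 gave -0.014 and -0.25, and NT1p12/TBVp13 gave 0.049 and -0.17. Only array 1 of NT1p14/TBVp13 overlapped the range of NT1p12/TBVp12. The mean was -0.18 ± 0.29 (SD, n = 3), and 0.15 with the NT1p14 pair turned.

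The second question was what each source pair showed against the error of repeat hybridisation. All 13 arrays entered 1 limma fit with a dye term. These p-values measure repeats of the same RNA and do not speak of other cultures or clones. In NT1p14/TBVp13, 4 of 13 probes passed the threshold, against 16.3% of all 16104 probes. At an unadjusted p under 0.05 there were 7 of 13, against 38.4%. Pdk1 was above 0, among 8.2% of all probes called in that direction. Pfkp probe 1526, Slc2a3 and Vegfa were below 0, among 8.12%. The fitted log2 ratio was 0.78 ± 0.13 (SE) for Pdk1, with an adjusted p of 0.0221 (limma), and -0.61 ± 0.12 for Pfkp probe 1526, with 0.0237. It was -0.55 ± 0.12 for Slc2a3, with 0.0268, and -0.48 ± 0.12 for Vegfa, with 0.0301. The carrier, a phosphofructokinase and the growth factor thus lay below 0, while the kinase lay above.

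All 4 calls were lost when the 5 arrays of the pair were fitted alone (adjusted p 0.199 to 0.204, limma), when arrays were scaled to a common spread (0.0561 to 0.18), without array 2 (0.0533 to 0.0547), without array 5 (0.0837 to 0.112), and without both of the wide arrays 4 and 5 (0.102 to 0.247). Without array 4 only Pfkp probe 1526 remained past the threshold. The fitted sizes moved less than the calls: without arrays 4 and 5 Pdk1 was at 0.63, Pfkp probe 1526 at -0.75 and Slc2a3 at -0.65, but Vegfa was at -0.24.

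**Figure D2:**
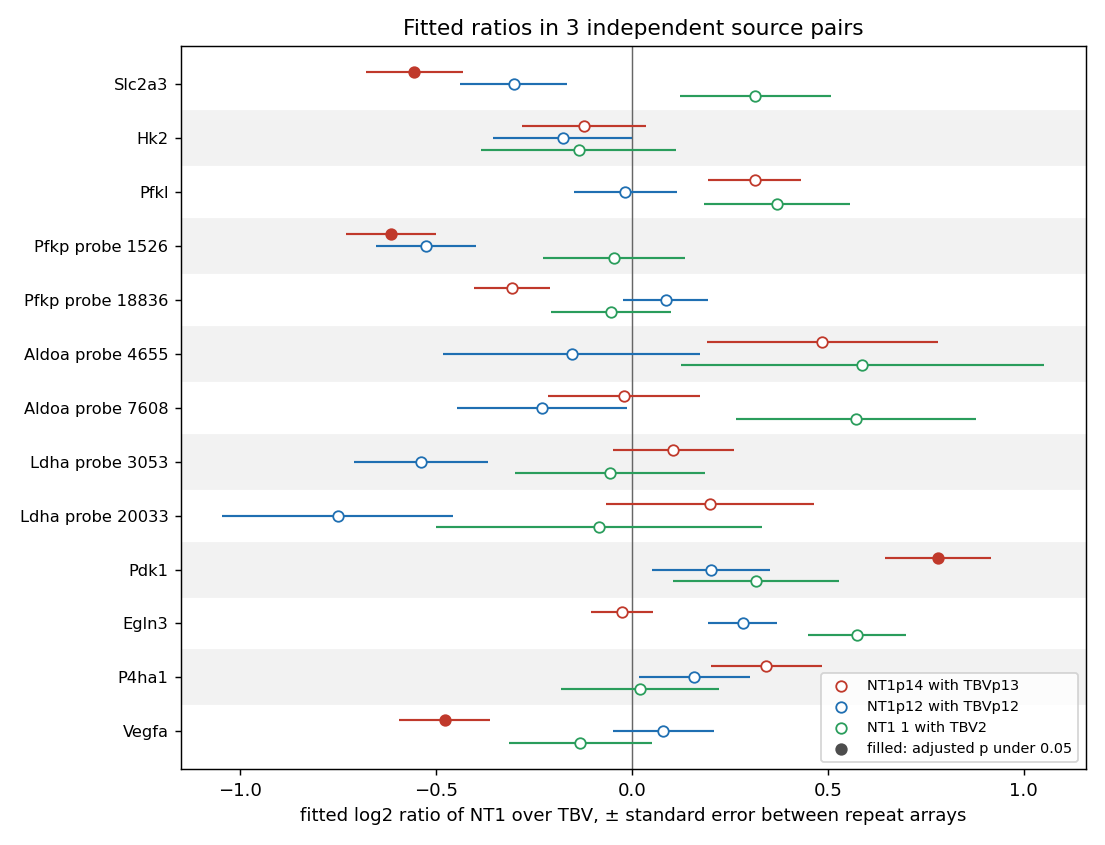
Fitted log2 ratio of NT1 over TBV (x axis) with its standard error between repeat arrays, for the 13 probes (rows) in the 3 independent source pairs; filled points have an adjusted p under 0.05. The filled points are Pdk1 at 0.78, and Pfkp probe 1526, Slc2a3 and Vegfa at -0.61 to -0.48, all in NT1p14/TBVp13.

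None of the 13 probes passed in NT1p12/TBVp12, where 0.438% of all probes did. The lowest were Ldha probe 20033 at -0.75, Ldha probe 3053 at -0.54 (adjusted p = 0.177, limma) and Pfkp probe 1526 at -0.52 (adjusted p = 0.116, limma). Pfkp probe 1526 passed there with whole numbers set to missing (adjusted p = 0.0289), without array 4 of the NT1p14 pair (0.0311) and without its arrays 4 and 5 (0.0207), at the same fitted size. Ldha, the last enzyme before lactate, thus had its lowest pair values here with both probes. At an unadjusted p under 0.05 there were 4 of 13 probes, against 16% of all probes.

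In NT1 1/TBV2 none of the 13 probes passed either, where 0.0182% of all probes did. Egln3 was the only one of 13 at an unadjusted p under 0.05, where 3.77% of all probes were, with a fitted 0.57 ± 0.12 (SE) and an adjusted p of 0.487 (limma). In NT1p12/TBVp13 none passed, where 0.00668% of all probes did, and 2 of 13 had an unadjusted p under 0.05, against 3% of all probes, Pfkl at 0.54 and Pfkp probe 1526 at -0.49. With arrays scaled to a common spread 4 of 13 probes passed in that pair, Pfkl above 0 and Slc2a3, Hk2 and Pfkp probe 1526 below 0. That scaling also raised the count over all probes in this pair to 1754. About 40% of this pair's values were whole numbers (40.4% and 40.3%), and its median absolute deviations, by which the scaling divides, were the smallest of the 13 arrays at 0.0784 and 0.131.

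**Figure D3:**
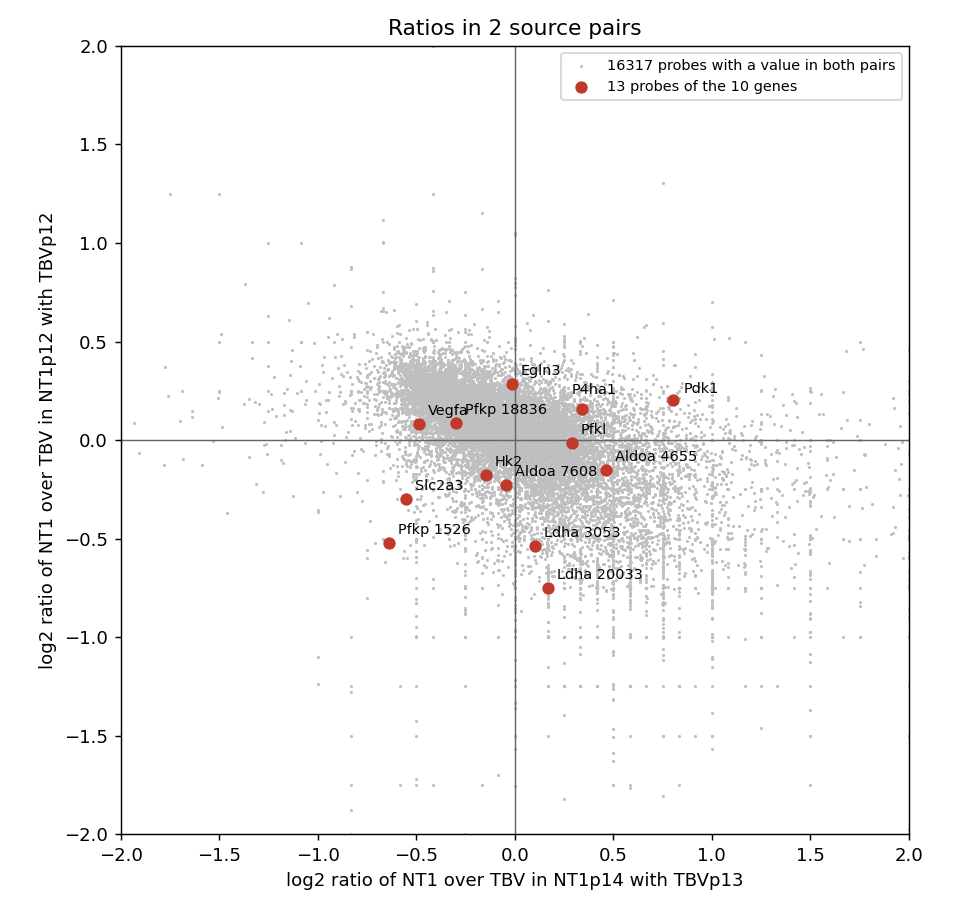
Log2 ratio of NT1 over TBV in NT1p14/TBVp13 (x axis) against NT1p12/TBVp12 (y axis), for the 13 probes (red) and all 16317 probes with both values (grey, 188 of them outside the axes). All probes run from upper left to lower right (r = -0.498). Pfkp probe 18836, Egln3 and Vegfa lie upper left, and Pfkl, Aldoa probe 4655 and both Ldha probes lower right. Pdk1 and P4ha1 lie upper right, and Slc2a3, Hk2, Pfkp probe 1526 and Aldoa probe 7608 lower left. The share of all probes with the same sign in both pairs is not given.

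The third question was whether the pairs differed from each other, tested as contrasts of the same fit. NT1p14/TBVp13 minus NT1p12/TBVp12 was past the threshold for 1 of 13 probes, against 23.4% of all 16083. At an unadjusted p under 0.05 there were 6 of 13, against 40.9%. The probe past the adjusted threshold was that of Vegfa, with a fitted -0.48 in NT1p14/TBVp13 and 0.08 in NT1p12/TBVp12, a difference of -0.56 ± 0.17 (SE) with an adjusted p of 0.0406 (limma). This call was lost when any 1 of 10 of the 13 arrays was left out (adjusted p 0.0547 to 0.0939, limma), and of these single omissions it stayed past the threshold only without array 1, 2 or 3 of NT1p14/TBVp13. It was also lost without arrays 4 and 5 of that pair (0.108), with scaled arrays (0.184), without a dye term (0.0902) and with the arrays of both pairs alone (0.0799). Pdk1 differed by 0.58 ± 0.20 (SE) with an adjusted p of 0.0566, and Ldha probe 3053 by 0.64 ± 0.23 with 0.0618 (limma). Pdk1, Ldha probe 3053 and Ldha probe 20033 passed too, with Vegfa, when array 1 of the NT1p14 pair was left out. The difference of NT1p14/TBVp13 and NT1 1/TBV2 passed for 0 of 13 probes and for 0.0315% of all probes. At an unadjusted p under 0.05 there were 3 of 13, against 10.6%. NT1p12/TBVp12 minus NT1 1/TBV2 passed for 0 of 13 and for 0% of all probes, with 1 of 13 at an unadjusted p under 0.05, against 7%. In both cases limma's test was run against only 2 arrays of NT1 1/TBV2.

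The dye orientation could be set against the sign within each pair. In NT1p14/TBVp13 the mean of the arrays with NT1 in Cy5 and that of the arrays with TBV in Cy5 had the same sign for 10 of 13 probes, against 59.1% of all probes. The figures were 8 of 13 and 51.8% in NT1p12/TBVp12, 9 of 13 and 50.5% in NT1 1/TBV2, and 5 of 13 and 27.3% in NT1p12/TBVp13. A mean of exactly 0 in an orientation counted as not the same sign. In NT1p12/TBVp13 the pair value was 0 for 2276 of 7970 genes, so the low share there need not mean opposed signs. These are descriptions of 13 probes of 10 genes, some of which share a gene.

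Related genes were set beside the 10, from lists that hold some of them too. In NT1p14/TBVp13 each list's count stands against the 16.3% of all probes past the threshold, 8.2% above 0 and 8.12% below. Among glycolytic enzymes 4 of 14 probes tested passed in NT1p14/TBVp13, all below 0. Beside Pfkp probe 1526 these were Pfkfb3, whose enzyme makes the activator of phosphofructokinase, at -0.56 ± 0.13 (SE, adjusted p = 0.0285, limma), Bpgm, the bisphosphoglycerate mutase, at -0.33 ± 0.08 (0.0337), and Aldoc, the brain form of aldolase, at -0.25 ± 0.08 (0.0487). In NT1p12/TBVp12 the same 3 genes were at 0.43, 0.08 and 0.09, and 0 of 16 probes passed. The list's median over genes was -0.25 in NT1p14/TBVp13, -0.05 in NT1p12/TBVp12 and 0.01 in NT1 1/TBV2, where all genes had 0.03, -0.00314 and -0.00647.

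Carriers split. Bsg, the chaperone of lactate transporters, was above 0 in NT1p14/TBVp13, at 0.95 ± 0.21 (SE, adjusted p = 0.0261, limma), and 8 of its 13 values were whole numbers. It was at -0.51 in NT1p12/TBVp12 and -0.59 in NT1 1/TBV2. Slc16a3, the lactate exporter Mct4, was at -1.13 ± 0.37 in NT1p14/TBVp13 without passing (adjusted p = 0.0701, limma), from 9 arrays with a value.

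In the list of pyruvate dehydrogenase control 3 of 8 probes passed in NT1p14/TBVp13, all above 0. Beside Pdk1 they were Pdha1, the catalytic subunit that Pdk1 phosphorylates, at 0.58 ± 0.14 (SE, adjusted p = 0.0304, limma), and Dlat, the acetyltransferase of the complex, at 0.43 ± 0.11 (0.031). The kinase and its substrate thus lay on the same side. Pdha1 was at -0.37 and Dlat at 0.24 in NT1p12/TBVp12, and at 0.01 and -0.28 in NT1 1/TBV2. For Pdha1 the 2 pairs differed by 0.95 ± 0.19 (SE, adjusted p = 0.0153, limma). The list's median was 0.38 in NT1p14/TBVp13, 0.05 in NT1p12/TBVp12 and 0.01 in NT1 1/TBV2.

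Among HIF subunits and oxygen sensing genes 2 of 12 probes passed in NT1p14/TBVp13, both above 0, a share near the 16.3% of all probes. One was a probe of Vhl, the ubiquitin ligase subunit that removes HIF alpha, at 0.63 ± 0.17 (SE, adjusted p = 0.0378, limma), but the other Vhl probe was at -0.25. The other was Crebbp, a coactivator of HIF, at 0.60 ± 0.17 (0.0398). Hif1a, the oxygen-regulated subunit itself, had 2 probes at -0.08 and 0.27 there, neither past the threshold. Among the other HIF targets 1 of 23 probes passed, Vegfa, below 0. The medians of the HIF targets were -0.04 in NT1p14/TBVp13, 0.07 in NT1p12/TBVp12 and 0.02 in NT1 1/TBV2.

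Probes of the mitochondrial lists passed in both directions in NT1p14/TBVp13. Of tricarboxylic acid cycle probes 4 of 15 passed, 3 above 0 and 1 below, among them Sdhd, a subunit of succinate dehydrogenase, at 0.85 ± 0.15, and Fh1, fumarate hydratase, at 0.89 ± 0.20 (SE, adjusted p = 0.0221 and 0.0271, limma). Of oxidative phosphorylation probes 10 of 46 passed, 5 in each direction, with Atp5a1 probe 6861 at 0.83 ± 0.17 (adjusted p = 0.0247, limma). The other Atp5a1 probe, 12053, was at 0.34 ± 0.52 (adjusted p = 0.645, limma). Genes were picked for naming by size of the fitted value, and the probes that passed below 0 were not among them. Of the list of gluconeogenesis and the pentose phosphate pathway 2 of 13 passed, Pgd at 0.85 ± 0.13 (0.0184) and Pcx at 0.50 ± 0.13 (0.0376), both above 0. Many of these values were whole numbers, with 6 of 13 for Sdhd and for Pgd and 11 of 13 for Atp5a1 probe 6861. In NT1p12/TBVp12 Sdhd was at -0.55, Fh1 at -0.26, Atp5a1 probe 6861 at -0.75, Pgd at -0.01 and Pcx at -0.55. NT1 1/TBV2 gave -0.01, 0.24, -0.02, 0.33 and 0.04 in the same order. List medians in NT1p14/TBVp13, NT1p12/TBVp12 and NT1 1/TBV2 were 0.23, -0.19 and -0.02 for the tricarboxylic acid cycle. For oxidative phosphorylation they were 0.16, -0.15 and -0.00052.

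Markers of other cell states and ribosomal protein genes were read from the same fit. Fibroblast markers passed for 7 of 24 probes in NT1p14/TBVp13, all above 0, and their median was 0.42 there, -0.28 in NT1p12/TBVp12 and -0.29 in NT1 1/TBV2. Acta2, smooth muscle actin, was at 1.19 ± 0.20 and Col1a1 probe 4861, collagen, at 1.02 ± 0.13 (SE, adjusted p = 0.0221 and 0.0144, limma). Both probes held whole numbers on 9 of 13 arrays. The other Col1a1 probe, 4830, was at 0.78 ± 0.25 without passing (SE, adjusted p = 0.052, limma). Ribosomal protein probes passed for 9 of 34 above 0 and 1 below, with medians of 0.53, -0.45 and 0.10 in the same 3 pairs. Pluripotency markers passed for 3 above and 3 below 0 of 17 in NT1p14/TBVp13, and for 4 of 18, all below 0, in NT1p12/TBVp12, with medians of 0.00178, -0.50 and -0.21. Their part in the values of the 10 genes was not tested. The calls of these lists come from the fit whose count of all probes past the threshold in NT1p14/TBVp13 was 2628, 0 with that pair's arrays alone and 1 without arrays 4 and 5.

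**Figure D4:**
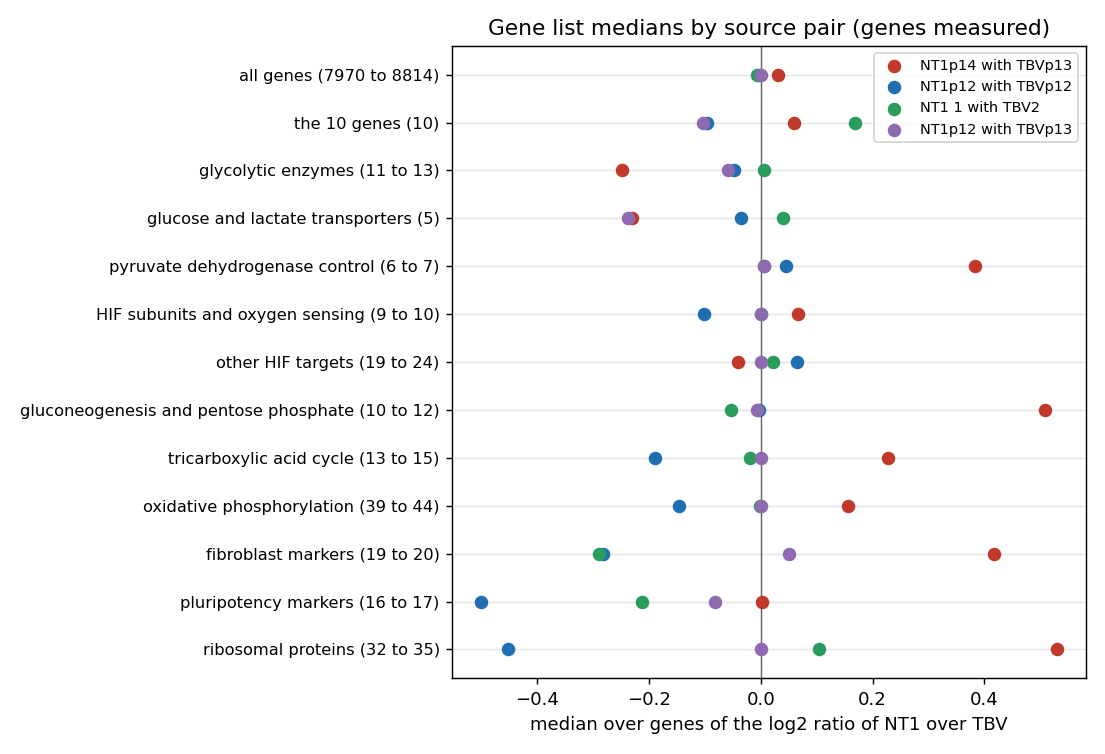
Median over genes of the log2 ratio of NT1 over TBV (x axis) for each gene list (rows, genes measured in brackets), 1 point per source pair. The medians of the 10 genes lie at 0.06, -0.10, 0.17 and -0.10 in the order of the legend, and those of ribosomal proteins at 0.53, -0.45, 0.10 and 0.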

How the data were processed

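Per the labels, total RNA of NT1 and TBV sources was hybridised on 13 two-colour arrays, with NT1 in Cy5 on 7 and TBV in Cy5 on 6. The deposited table gives 1 value per probe and array, treated here as a log2 ratio. Its log base, numerator and normalisation are not given in the sources used here, and some of the deposited log2 values are whole numbers for a reason not known here. The platform annotation gave 11723 probes 1 symbol, 806 several and 7676 none, and 11590 matched RefSeq by Entrez ID.

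Each array was centred on its median. Arrays with TBV in Cy5 were multiplied by -1, and per source pair the means of both dye orientations were averaged to 1 value, so that a dye effect cancels. The 3 independent pairs (n = 3) were tested against 0 with limma 3.58.1 in R 4.3.3. A second limma fit on all 13 arrays, with a dye term, tested each pair and the differences between pairs. All tests were two-sided, with Benjamini-Hochberg adjustment over all probes and a threshold of 0.05. The number of arrays limits the precision. The p-values over pairs measure the spread among preparations, which may be technical.

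The members and the gene lists were chosen with earlier results of these data known. Named genes are all members and, per list, up to 4 genes past the threshold in any fit, or the 2 with the smallest p where fewer than 2 passed. The fits were tested on simulated data with equal noise on all arrays, no whole numbers and no spread between preparations. The deposited arrays differ from this, so the simulation cannot tell how the fits behave on them. Alternatives covered the replicate unit, dye, centring, scaling, normalisation, whole numbers, missing values, moderation, direction, probes of a gene and left-out pairs and arrays. Python 3.11.15 with matplotlib 3.10.9 drew the figures.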

Additional observations from a re-analysis of the deposited data

Results flagged for a closer look

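Pdk1 on array 1 of NT1p14/TBVp13 was at 0.124, far from the other 4 arrays of the pair at 0.83 to 1. Ldha probe 20033 on array 3 of NT1p12/TBVp12 was at 0, while the other 3 arrays were at -1, all as whole numbers. These 2 came from 26 groups of 4 or 5 arrays examined, of which chance alone sets apart about 1 in 20 if values are continuous. Both flagged groups hold tied whole numbers, so that rate need not hold for them. For Vegfa, the ratio of NT1 over TBV was lower in NT1p14/TBVp13 than in NT1p12/TBVp12, by -0.56 on the log2 scale in the test of the difference (limma, adjusted p = 0.0406). The difference no longer passed when any 1 of 10 of the 13 arrays was left out (adjusted p 0.0547 to 0.0939). Its arrays were below 0 on 4 of 5 in the first pair and on 1 of 4 in the second.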

How the results depend on the processing

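Over the 3 pairs, 0 of the 13 probes passed under every alternative run. The count over all probes became 11 with 13 arrays as independent and 5 with the source pair as a random block (consensus correlation -0.157). The median of the 13 means was 0.056 with NT1 in Cy5 only, 0.021 with NT1p14/TBVp13 turned, 0.092 with NT1p12/TBVp12 turned, and -0.14 to 0.041 over left-out pairs and arrays. The sign of Pdk1 turned only with NT1p14/TBVp13 turned (-0.095). That turning also gave 0.19 for Slc2a3, 0.023 for Pfkp probe 1526, 0.11 for Pfkp probe 18836, -0.0085 for Aldoa probe 4655, -0.054 for P4ha1 and 0.15 for Vegfa. With NT1p12/TBVp12 turned Slc2a3 was at 0.022, Ldha probe 3053 at 0.20 and Ldha probe 20033 at 0.28. With NT1 1/TBV2 turned Pfkl was at -0.032, Aldoa probe 4655 at -0.094, Aldoa probe 7608 at -0.28 and Egln3 at -0.10. With NT1 in Cy5 only Slc2a3 was at 0.022 and Pfkp probe 18836 at 0.18, and with TBV in Cy5 only Hk2 was at 0.0019 and Aldoa probe 7608 at -0.077. Aldoa probe 7608 was also at -0.050 over 4 pairs, -0.067 with independent arrays, -0.053 with the random block, and -0.025 both with whole numbers as missing and without arrays 4 and 5 of NT1p14/TBVp13. That last setting was chosen after seeing the data. Over left-out pairs and arrays the means ran from -0.43 to 0.0076 for Slc2a3, -0.18 to 0.017 for Pfkp probe 18836, -0.14 to 0.27 for Aldoa probe 7608, -0.30 to 0.024 for Ldha probe 3053 and -0.42 to 0.041 for Ldha probe 20033.

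Within NT1p14/TBVp13 the count of all probes past the threshold was 24 with scaled arrays, 635 without a dye term, 0 with its arrays alone, 1 without arrays 4 and 5, and 2 to 3942 over left-out arrays. Members past it numbered 0, 2, 0 and 0 under the same 4 settings and 0 to 4 over left-out arrays. Ldha probe 3053 was there at -0.077 with scaled arrays, -0.089 without arrays 4 and 5, and -0.033 to 0.24 over left-out arrays, and Ldha probe 20033 at -0.14 with scaled arrays. Aldoa probe 4655 was at -0.19 with whole numbers as missing and -0.18 without arrays 4 and 5. Aldoa probe 7608 was at 0.033 and Egln3 at 0.0067 without a dye term, and Aldoa probe 7608 ran from -0.21 to 0.16 over left-out arrays. In NT1p12/TBVp12 the counts over all probes were 371 with whole numbers as missing, 0 with its arrays alone, 868 without arrays 4 and 5 of the other pair, and 0 to 277 over left-out arrays, with 1 member with whole numbers as missing, 1 without arrays 4 and 5 and 0 to 1 over left-out arrays. Pfkl ran there from -0.060 to 0.025, Pfkp probe 18836 from -0.013 to 0.15 and Aldoa probe 4655 from -0.37 to 0.022. In NT1 1/TBV2 the counts were 10 with scaled arrays, 0 with whole numbers as missing, 6 without arrays 4 and 5, and 3 to 5 over left-out arrays. In NT1p12/TBVp13 they were 1754 (4 members), 0, 2, and 0 to 2 for the same settings.

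For NT1p14/TBVp13 minus NT1p12/TBVp12 the counts were 1120 with scaled arrays, 2334 without a dye term, 1411 with those arrays alone, 1209 without arrays 4 and 5, each with 0 members, and 529 to 4755 with 0 to 4 members over left-out arrays. With whole numbers as missing 2 members passed, Vegfa and Ldha probe 3053. Hk2 differed by -0.024 with scaled arrays, -0.017 without arrays 4 and 5 and -0.12 to 0.31 over left-out arrays, and P4ha1 by -0.013 with scaled arrays and -0.11 without arrays 4 and 5. Aldoa probe 4655 differed by -0.038 and -0.032, and Aldoa probe 7608 by -0.11 and -0.13, with whole numbers as missing and without arrays 4 and 5. NT1p14/TBVp13 minus NT1 1/TBV2 gave 1 probe with scaled arrays, 0 without a dye term, with those arrays alone and without arrays 4 and 5, and 0 to 16 over left-out arrays. NT1p12/TBVp12 minus NT1 1/TBV2 gave 6 with scaled arrays, 6 with whole numbers as missing, 33 without arrays 4 and 5, and 0 to 12 over left-out arrays. Except where a setting drops arrays or values, the cause was not tested.

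A pair of 2 arrays gave no value of its own when fitted alone or with 1 array left out, and P4ha1 and Ldha probe 20033 had none when probes with missing values or whole numbers were dropped. Each value is already a ratio of NT1 over TBV on the same array, so no further pairing was fitted. The table has no intensities, so signal over background could not be weighed.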
